A study of Mus musculus with 25 samples.

Results

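Replication-dependent histone genes encode the core histones H2A, H2B, H3 and H4 and the linker histone H1 that package newly made DNA. The 69 genes described here are the entries of the deposited expression table whose symbol begins with Hist1h, Hist2h, Hist3h or Hist4h and does not contain "-ps", out of 54429 entries in all. They comprise 6 H1, 20 H2A, 18 H2B, 12 H3 and 13 H4 genes. GENCODE M21 lists 67 of them as protein coding and the H2A entries Hist1h2aj and Hist1h2al, with 4 and 3 reads over all libraries, as pseudogenes. In the GRCm38 build, 56 of them lie on chromosome 13 (Hist1), 10 on chromosome 3 (Hist2), 2 on chromosome 11 (Hist3) and 1 on chromosome 6 (Hist4).

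Expression was measured by RNA sequencing of astrocytes from the cortex of C57BL/6J mice, isolated by immunopanning on HepaCAM, an adhesion protein of astrocytes, and kept in culture. The 25 libraries fall into 9 groups. EGFR inhibitor (3 libraries) was compared with its DMSO solvent control (3), and P53 inhibitor (3) with its own DMSO control (3); both inhibitors were added on day 2 in vitro. Cells with HBEGF, a ligand of the EGF receptor (2), were compared with cells from which HBEGF was withdrawn (2), with addition or withdrawal on the day of preparation. Untreated cultures were taken on day 2 (3), day 7 (3) and day 14 (3) in vitro. No group carries a genetic change. The sources used here do not give the identity or dose of the inhibitors, when treated cells were harvested, the age of the mice or whether replicates came from separate animals or cultures. The p-values therefore cover only the spread among the libraries at hand, which may be technical.

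Histone messenger RNAs of this kind are made in S phase, when DNA is copied, and are degraded when replication ends. Instead of a poly(A) tail they usually end just after a short stem-loop, which is bound by the protein Slbp and cut with the help of the U7 small nuclear RNA particle. A few of the genes are also known to give longer, polyadenylated transcripts, among them Hist1h1c, Hist1h2bc and Hist2h2be, and such transcripts are known from cells that no longer divide. Cortical astrocytes divide around birth and then mature, and EGF receptor signaling is a known driver of their division.

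A 16-base stem-loop was found in an annotated transcript of 46 of the 69 genes and of 40 of 55381 other genes (0.0722%). The sites below are shown because they belong to genes that differ in how they behaved in the cultures. Capitals mark the stem-loop and lower case the 5 bases on either side, all read 5′ to 3′ from GENCODE M21 transcripts.
Hist1h2bj: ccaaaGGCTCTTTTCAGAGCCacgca
Hist1h2bb: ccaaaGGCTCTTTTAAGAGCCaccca
Hist1h4d: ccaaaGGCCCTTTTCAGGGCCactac
Hist1h3g: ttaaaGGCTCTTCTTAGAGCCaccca
Hist1h1c: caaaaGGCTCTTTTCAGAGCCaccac
Hist3h2a: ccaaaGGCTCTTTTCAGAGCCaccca
The first form was the most frequent, with 26 genes of the H1, H2A, H2B and H3 classes, and 7 of the H4 genes shared the form of Hist1h4d. Hist1h2bj and Hist1h2bb end 23 bases after the stem-loop. The annotated transcripts of Hist1h1c and Hist3h2a run on for 840 and 1643 bases past a stem-loop of the most frequent form. Hist1h2bc and Hist2h2be have no match in their annotated transcripts, and neither do Hist1h1a and Hist1h1b, whose annotated transcripts are 741 and 743 bases long. The annotated gene span exceeds 1000 bases for 19 genes, called long-annotated below, and is 1000 bases or less for the other 50.

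The promoters of 62 of the 69 genes were found in RefSeq's table (GRCm38.p6), each covering 300 bases around the start. CCAAT, read on both strands, was present in 53 of the 62 (85.5%) and in 41.1% of all 27025 genes with a promoter in that table. TATAAA was present in 35 (56.5%, against 15.7%). The octamer ATTTGCAT, known from H2B promoters, was present in 7 of 18 H2A and 7 of 16 H2B promoters and in no H1, H3 or H4 promoter (all genes: 1.97%). AAACACA, known as the H1 box, was present in 5 of 6 H1 promoters (all genes: 8.22%). The 250 bases upstream of the start are shown for a pair of H1 and a pair of core histone genes, of which the first of each pair fell and the second rose in at least 1 comparison below; capitals mark these 4 motifs on either strand.
Hist1h1b (chr13:21780626-21780875, minus strand): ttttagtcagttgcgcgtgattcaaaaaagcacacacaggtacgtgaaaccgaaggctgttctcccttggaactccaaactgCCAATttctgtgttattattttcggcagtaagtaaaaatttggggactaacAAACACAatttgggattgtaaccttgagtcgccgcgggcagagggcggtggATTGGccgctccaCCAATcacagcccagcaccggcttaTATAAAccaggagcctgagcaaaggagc
Hist1h1c (chr13:23738557-23738806, plus strand): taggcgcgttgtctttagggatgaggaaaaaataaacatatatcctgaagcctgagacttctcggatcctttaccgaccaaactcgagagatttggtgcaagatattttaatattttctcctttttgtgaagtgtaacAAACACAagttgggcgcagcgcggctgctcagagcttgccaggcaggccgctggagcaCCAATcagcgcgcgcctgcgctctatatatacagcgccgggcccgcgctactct
Hist1h2bb (chr13:23746484-23746733, plus strand): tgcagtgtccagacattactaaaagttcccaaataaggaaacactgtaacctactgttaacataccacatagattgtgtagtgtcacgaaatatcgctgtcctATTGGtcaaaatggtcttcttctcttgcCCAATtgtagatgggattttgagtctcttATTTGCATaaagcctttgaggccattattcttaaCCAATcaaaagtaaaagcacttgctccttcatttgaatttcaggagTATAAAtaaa
Hist3h2a (chr11:58954435-58954684, plus strand): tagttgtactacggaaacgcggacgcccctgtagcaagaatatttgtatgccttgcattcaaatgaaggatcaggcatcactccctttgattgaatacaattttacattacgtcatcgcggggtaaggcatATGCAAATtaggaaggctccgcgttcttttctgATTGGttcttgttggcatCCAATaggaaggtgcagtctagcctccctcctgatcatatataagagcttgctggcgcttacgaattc
In these windows Hist1h1b and Hist1h1c share the H1 box and CCAAT, and TATAAA is present in Hist1h1b and Hist1h2bb. The octamer is present both in Hist1h2bb, which fell, and in Hist3h2a, which rose. A match is a description of the sequence and not of binding.

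The deposited values are RPKM, reads scaled to library depth and gene length, where the length used was the whole gene span including introns. The 25 libraries held 4012344 to 9698548 counted reads (median 6111273), and 70896 reads in all fell on histone genes. All 1235 member values above 0 corresponded to whole reads (within 0.1 of a whole number). A library of the HBEGF group (replicate 1) and one of the day 7 group (replicate 3) stood apart in the proliferation gene Mki67, at 11.97 RPKM against 59.6 in the other HBEGF library and at 4.41 RPKM against 35.0 and 37.6 in the other day 7 libraries. In bulk RNA, fewer dividing cells and less RNA per cell cannot be told apart. The summed RPKM of 10 astrocyte markers was 90.9 to 429 over the libraries and that of 6 endothelial markers at most 0.414, while the 6 oligodendrocyte precursor markers, led by Olig1 and Olig2, summed to 92.5 to 510.

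Levels were compared between genes per exon length. The H4 gene Hist1h4d was highest, with an exon-length RPKM of 56.5 on average over the 25 libraries, followed by the H2B gene Hist1h2bm (52.3), the linker histone gene Hist1h1b (46.4), the H2B gene Hist1h2bl (43.8) and the linker histone gene Hist1h1e (41.9). The order differed between groups: Hist1h2bm (85.3) and Hist1h1b (81.0) lay above Hist1h4d (75.7) in the DMSO libraries of the EGFR experiment, Hist1h2bm (56.4) above Hist1h4d (47.3) with HBEGF, and Hist1h2bl (83.5) above Hist1h4d (82.2) in the DMSO libraries of the P53 experiment. The other H1 genes followed, with Hist1h1c at 18.7, Hist1h1a at 18.3 and Hist1h1d at 1.52, whereas the testis gene Hist1h1t reached 0.152. The other testis genes, Hist1h2ba and Hist1h2aa, had 5 reads in 1 library and no read in any library, respectively. Among H3 genes the highest were Hist1h3e (4.004) and Hist1h3g (3.37), and Hist4h4, the only member on chromosome 6, stood at 0.446. The long spliced annotation of Hist1h2bc (span 8710 bases, exons 1156 bases) lowers its deposited value, which averaged 1.76 RPKM by span and 13.2 RPKM by exon length. The same holds for Hist1h2be (span 37455 bases), at 0.383 RPKM by span and 3.23 RPKM by exon length.

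Near-identical copies limit what can be assigned to 1 gene. All 5 genes whose 50-base windows were found entirely in other annotated genes (Hist2h2aa1, Hist2h2aa2, Hist2h2bb, Hist2h3b and Hist2h3c1) had no read in any library. Of 15 genes with 80 to under 100% of windows shared, 5 were tested, compared with 14 of 16 with 50 to under 80% and 27 of 33 below 50%. Hist1h2bl, at 82.8% shared, was the highest of the genes sharing at least 80%, so its values may hold or lack reads of its copies. All 20 H2A genes overlap another annotated gene, as do 6 of the others, and the sources used here do not say whether counting used strand, so reads of overlapping partners cannot be told apart; Hist3h2a overlaps Trim17 on the same strand and Hist1h1e overlaps Hist1h2be. H2A and H2B genes often start head to head: 13 such pairs had starts 176 to 306 bases apart, and the H2B gene had the higher exon-length RPKM in 11 of them.

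**Figure D1:**
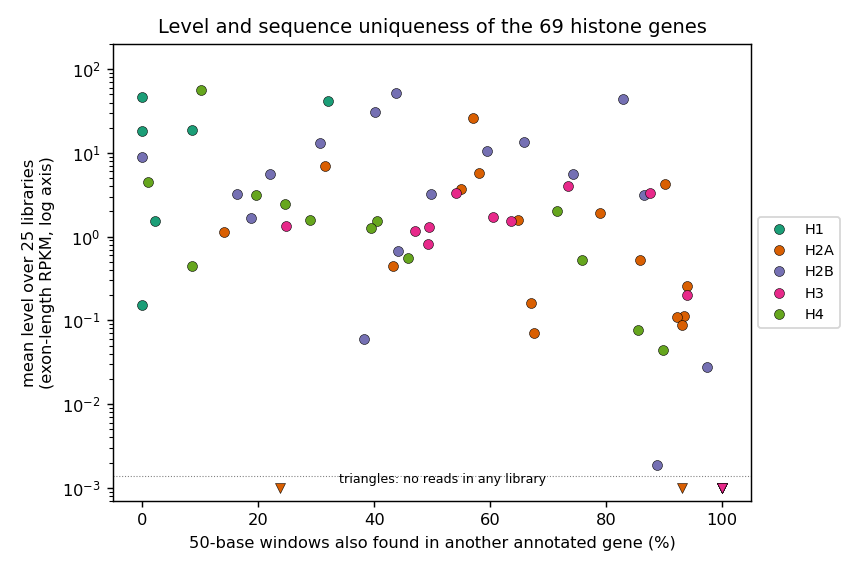
Each point is 1 of the 69 histone genes: the horizontal axis gives the percent of its 50-base windows also found in another annotated gene, the vertical axis its mean exon-length RPKM over 25 libraries on a log axis, and colors the class. Triangles mark genes with no reads, 5 of which lie at 100%.

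Together the histone genes took 188 to 773 RPM, the depth-scaled read count that RPKM gives before its division by length. In the EGFR inhibitor experiment the sum was 620, 558 and 619 RPM in the DMSO libraries and 335, 357 and 318 with inhibitor, so that the groups did not overlap. It was 309 and 438 with HBEGF and 384 and 352 after withdrawal, which overlap. The 309 is the HBEGF library with low Mki67, and the other HBEGF library, at 438, lay above both withdrawal libraries. The P53 experiment gave 773, 480 and 604 with DMSO and 462, 453 and 482 with inhibitor. In the untreated series the sum was 459, 503 and 340 on day 2, 395, 449 and 188 on day 7, and 362, 375 and 324 on day 14. The lowest of all, 188, is the day 7 library with low Mki67; without it the day 7 mean was 422 instead of 344. H1 and H2B genes contributed most: in the DMSO libraries of the EGFR experiment H1 genes held 250 ± 23.7 RPM (SD, n = 3), H2B genes 182 ± 11.4, H4 genes 106 ± 5.84, H2A genes 42.8 ± 2.22 and H3 genes 19.5 ± 0.589.

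**Figure D2:**
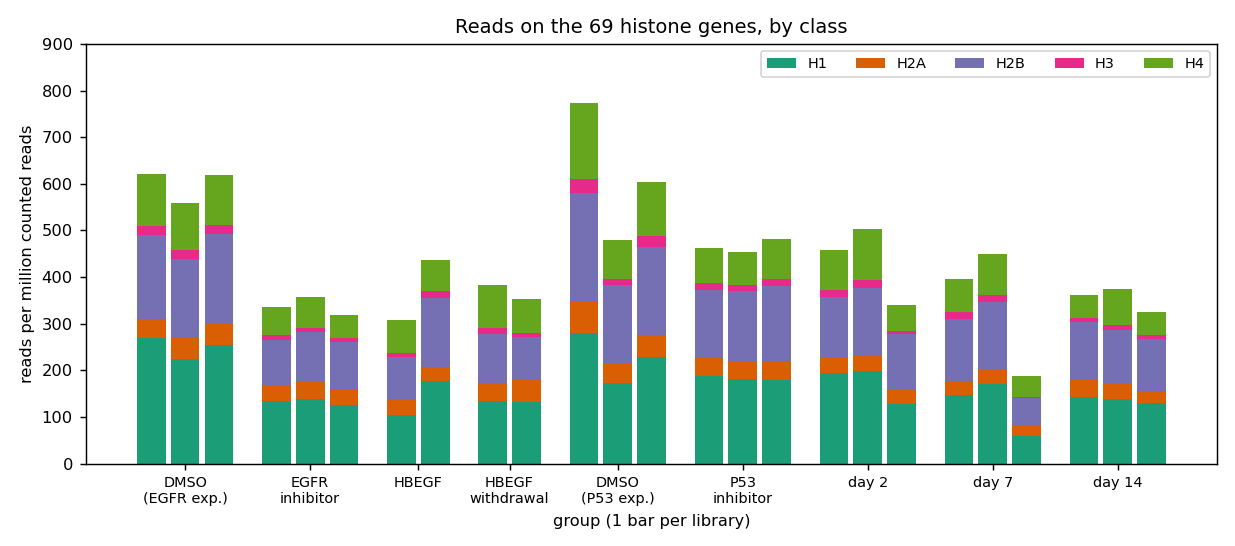
Bars show histone RPM over the 69 genes (vertical axis from 0), 1 bar per library, stacked by class and arranged by group. The 3 EGFR inhibitor libraries reach 318 to 357 and their DMSO controls 558 to 620.

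Differences between groups were tested in 1 limma model over the 13850 genes that reached 1 RPKM in 2 libraries or more, on log2(RPKM + 1), with Benjamini-Hochberg adjustment over all of them; 46 of the 69 histone genes were among them (5 of 6 H1, 10 of 20 H2A, 12 of 18 H2B, 9 of 12 H3 and 10 of 13 H4). "Fell" and "rose" below mean an adjusted p under 0.05. Log2 changes are on the log2(RPKM + 1) scale, which understates changes of low genes.

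With the EGFR inhibitor, 20 of the 46 tested histone genes fell and 1 rose. Of all tested genes, 22.2% fell and 16.3% rose. The median log2 change was -0.69 over the histone genes and -0.02 over all tested genes. Those that fell comprised 3 of 5 tested H1 genes, 4 of 10 H2A, 7 of 12 H2B, 3 of 9 H3 and 3 of 10 H4 genes. Leaving out any single library gave between 14 and 22 lower genes. It gave 1 higher gene, or 2 without DMSO replicate 3.

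Among H1 genes, Hist1h1b, a linker histone of dividing cells, was at 85.8, 73.8 and 83.7 RPKM with DMSO and at 22.0, 27.6 and 19.9 RPKM with EGFR inhibitor. Every inhibitor library lay far below every control, and the mean was 3.50-fold lower (log2 change -1.77 ± 0.49 SE, adjusted p = 0.0074). Hist1h1a fell 2.60-fold, from 30.1 ± 1.84 to 11.6 ± 1.12 RPKM (SD, n = 3; adjusted p = 0.018). Hist1h1d fell from 2.31 ± 0.452 to 1.04 ± 0.103 RPKM (adjusted p = 0.0029). Hist1h1e went from 62.5 ± 9.02 to 36.6 ± 1.56 RPKM and just missed the threshold (adjusted p = 0.051); it was called lower in 6 of 10 other settings (adjusted p 0.0059 to 0.038) and in 6 of 25 fits without 1 library. Hist1h1c differed from these in its values: 16.4, 17.5 and 21.8 RPKM with DMSO and 18.4, 19.9 and 16.6 RPKM with inhibitor, which overlap (log2 change -0.02, 95% interval -0.58 to 0.55, adjusted p = 0.99).

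Among H2B genes, Hist1h2bj was at 18.1, 22.4 and 23.9 RPKM with DMSO and at 3.35, 5.41 and 3.75 RPKM with inhibitor. This 5.16-fold difference was the largest log2 change among the named genes in this comparison (-2.13 ± 0.40 SE, adjusted p = 0.00034). Hist1h2bb was at 37.1, 45.6 and 39.1 RPKM with DMSO and 11.2, 11.5 and 10.3 RPKM with inhibitor, 3.70-fold lower with no overlap (adjusted p = 0.0024). Hist1h2bl (log2 change -1.72), Hist1h2bf (-1.26) and Hist1h2bm (-0.98) also fell, as did Hist1h2bg and Hist1h2bh. The H2B genes known for polyadenylated transcripts gave other values. Hist1h2bc was at 1.51 ± 0.166 RPKM with DMSO and 1.36 ± 0.112 RPKM with inhibitor (adjusted p = 0.75), and Hist2h2be at 8.32 ± 1.24 and 10.96 ± 0.185 RPKM (adjusted p = 0.13). Hist3h2ba was at 1.03, 4.65 and 8.73 RPKM with DMSO and 7.00, 7.88 and 10.2 RPKM with inhibitor, which overlap (adjusted p = 0.064).

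Among H2A genes, Hist1h2ak, the highest of its class, fell 2.19-fold, from 36.4 ± 1.39 to 16.6 ± 2.77 RPKM (adjusted p = 0.0017). Hist1h2ab (log2 change -1.64), Hist1h2ag (-1.62) and Hist1h2ai (-1.34) fell as well; Hist1h2ai was at the threshold (adjusted p = 0.049) and was lost in 16 of 25 fits without 1 library. Hist3h2a, a long-annotated H2A gene outside the main clusters, was the gene that rose, from 3.46, 6.01 and 6.18 RPKM to 10.2, 10.3 and 9.86 RPKM. All inhibitor libraries lay above all controls, a 1.93-fold difference (log2 change 0.87 ± 0.20 SE, adjusted p = 0.0021). Among H3 and H4 genes, the abundant Hist1h4d fell 1.86-fold, from 79.5, 70.6 and 77.3 RPKM to 43.5, 45.1 and 33.5 RPKM (adjusted p = 0.014), together with Hist1h4a, Hist1h4i, Hist1h3d, Hist1h3f and Hist2h3c2. Hist1h3e, Hist1h3g and Hist2h4 had lower means with inhibitor but adjusted p from 0.14 to 0.58.

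By position, genes that fell with the inhibitor included 5 of 10 tested in the chromosome 13 stretch from 21715763 to 21837530, 3 of 4 in that from 22035164 to 22043676 and 11 of 25 in that from 23531050 to 23764406, and 1 of 5 tested genes of the chromosome 3 cluster. Both chromosome 11 genes had positive log2 changes. By annotated length, 14 of 33 tested genes of 1000 bases or less fell and none rose, while 6 of 13 long-annotated genes fell and 1 rose. Beside these stand the 22.2% of all tested genes that fell and the 16.3% that rose, and the smaller of these subsets cannot be set apart from those shares.

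After HBEGF withdrawal, 4 histone genes rose and 3 fell. Of all tested genes, 10.0% rose and 22.5% fell, and the median log2 change was -0.19 for histone genes and -0.10 for all tested genes. The 4 that rose were Hist1h1c, Hist3h2a, Hist2h2be and Hist1h2bc, all long-annotated; the 3 that fell, Hist1h1a, Hist1h2bb and Hist1h2ag, were all 1000 bases or less. Among 13 tested long-annotated genes the counts were thus 4 higher and none lower, and among 33 shorter genes none higher and 3 lower. Without Hist1h1c, Hist1h2bc and Hist2h2be, the genes known for polyadenylated transcripts, 1 of 10 tested long-annotated genes rose, beside 10.0% of all tested genes. The long-annotated Hist1h2be was not among the tested genes. The lower calls rested on few libraries: none was left without HBEGF replicate 2, 1 without either withdrawal library, 4 without HBEGF replicate 1, 5 without day 7 replicate 2 and 8 without day 7 replicate 3. The higher count was 2 without withdrawal replicate 2. Fitted on its 4 libraries alone, this comparison gave no call in either direction.

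Hist1h1c was at 5.61 and 10.6 RPKM with HBEGF and at 23.8 and 24.5 RPKM after withdrawal. The libraries without HBEGF were both higher, 2.98-fold on average (log2 change 1.52 ± 0.33 SE, adjusted p = 0.0017). Hist3h2a was at 5.03 and 4.96 RPKM with HBEGF and 8.77 and 14.0 RPKM after withdrawal, 2.28-fold higher (adjusted p = 0.0040). Hist2h2be, whose transcript lacks a stem-loop match, went from 4.17 and 6.69 RPKM to 8.76 and 10.4 RPKM (1.76-fold, adjusted p = 0.016). Hist1h2bc went from 0.694 and 1.13 RPKM to 2.14 and 1.62 RPKM, with both withdrawal libraries higher, but its adjusted p of 0.049 was at the threshold and the call was lost in 21 of 25 fits without 1 library. Without both libraries that stand apart, Hist1h1c and Hist3h2a remained among 3 higher genes, with Hist1h4h, and 8 genes were lower.

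Hist1h1a was at 13.6 and 27.0 RPKM with HBEGF and 2.89 and 5.10 RPKM after withdrawal, 5.07-fold lower (log2 change -2.05 ± 0.51 SE, adjusted p = 0.0047). The HBEGF libraries differed from each other, with replicate 1 lower, and both lay above both withdrawal libraries. Hist1h2bb was at 23.8 and 53.3 RPKM and then at 13.6 and 10.97 RPKM (3.14-fold lower, adjusted p = 0.036). Hist1h2ag was at 2.12 and 1.35 RPKM with HBEGF and had no reads in either withdrawal library, at least 1.59-fold lower with a floor of 3 reads per library (adjusted p = 0.047). Hist1h1b was at 26.7 and 71.5 RPKM and then at 21.0 and 11.8 RPKM; its 2.99-fold lower mean did not pass (adjusted p = 0.081). Hist1h4d, which fell with the EGFR inhibitor, was at 48.7 and 46.1 RPKM with HBEGF and 55.3 and 55.1 RPKM after withdrawal (adjusted p = 0.68).

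The difference between the EGFR inhibitor change and the HBEGF withdrawal change was tested directly. None of the 46 histone genes passed (of all tested genes, 1.27% were higher and 0.556% lower); 5 had an unadjusted p under 0.05, and limma's voom on recovered reads called 1, Hist1h1c. For Hist1h1c the difference was -1.54 ± 0.43 SE on the log2 scale (adjusted p = 0.072; 0.025 with voom), and it also passed without HBEGF replicate 2, day 7 replicate 3 or day 14 replicate 1. Without both libraries that stand apart, which leaves 1 HBEGF library, the difference for Hist1h1a was above 0, the opposite direction to that of Hist1h1c. The EGFR inhibitor change minus the withdrawal change was below 0 for 40 of 46 histone genes, with a median of -0.48, and for 5546 of all 13850 tested genes, with a median of 0.08. These genes vary together and are not replicates, so the count is a description. The HBEGF side rests on 2 libraries, with 309 RPM of histone reads in the one with low Mki67 and 438 RPM in the other.

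**Figure D3:**
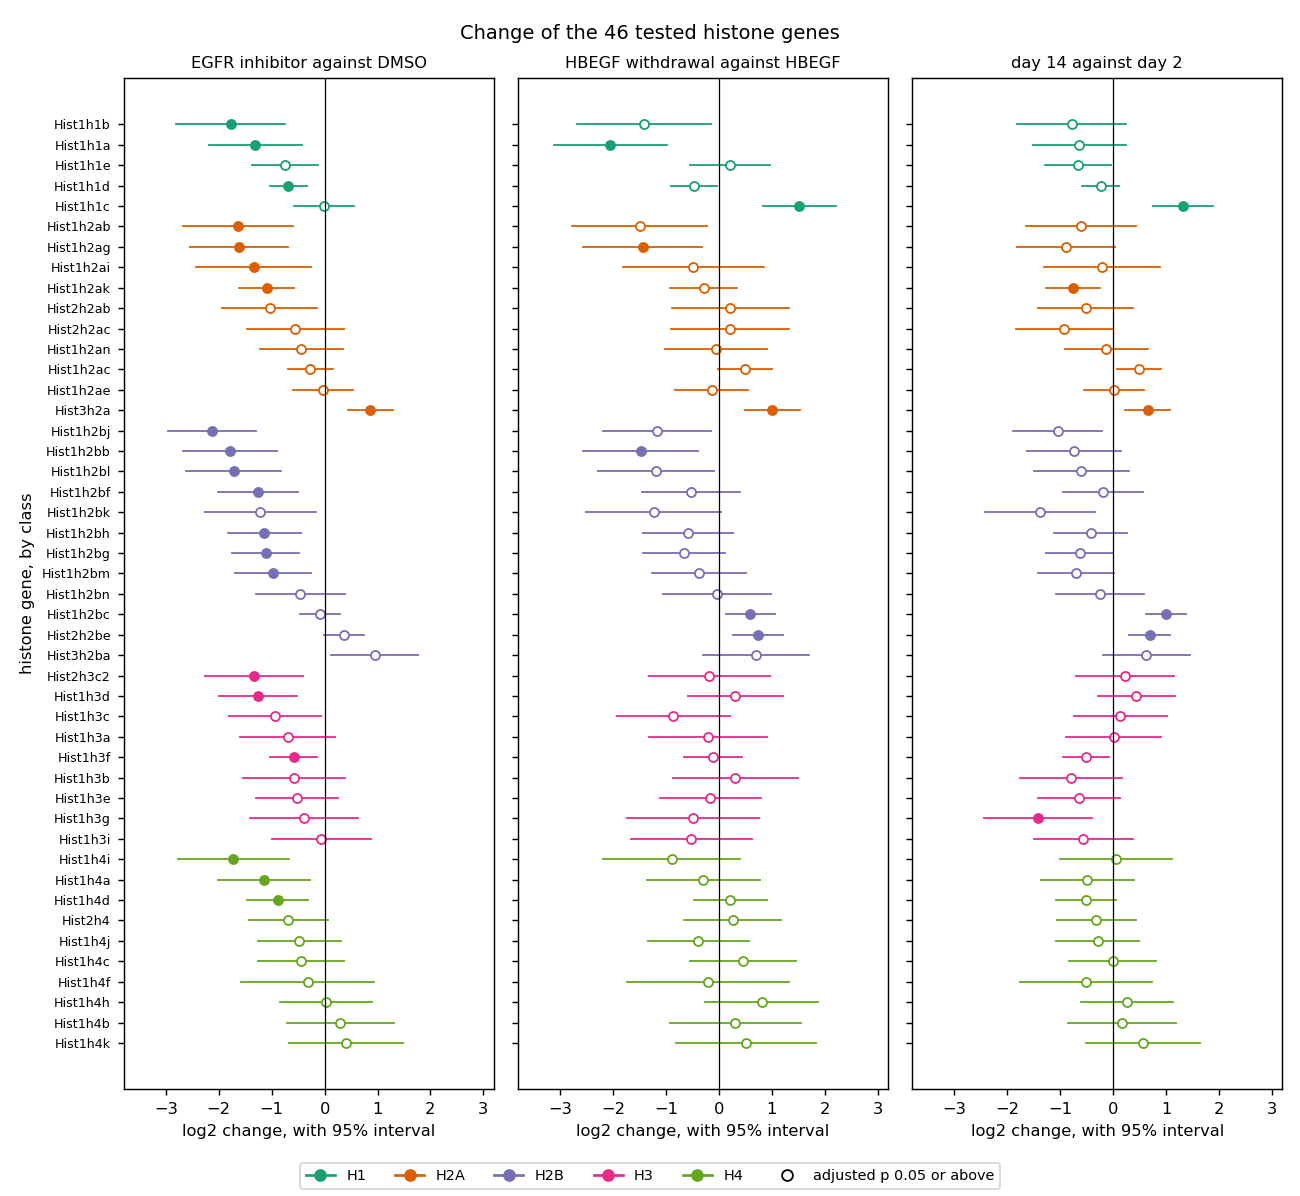
Log2 changes on the log2(RPKM + 1) scale (horizontal axis, with 95% interval) of the 46 tested histone genes (vertical axis, by class) in 3 comparisons; filled points have an adjusted p under 0.05. Filled points lie mostly left of 0 with the EGFR inhibitor, while Hist1h1c, Hist1h2bc, Hist2h2be and Hist3h2a are filled right of 0 after HBEGF withdrawal and on day 14.

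In untreated cultures, day 14 was compared with day 2: 4 histone genes rose and 2 fell. Of all tested genes, 5.55% rose and 17.6% fell; the median log2 change was -0.37 for histone genes and -0.11 for all tested genes. The 4 that rose were the same as after HBEGF withdrawal, namely Hist1h1c, Hist1h2bc, Hist2h2be and Hist3h2a. The comparisons share no library, but both use the spread estimated in 1 model over all 25 libraries. The overlap of higher calls over all tested genes was not counted, so this overlap has no share to stand beside. Hist1h2ak and Hist1h3g fell. The lower count was 9 without day 7 replicate 3, 6 without day 2 replicate 3, 4 without day 7 replicate 2, 1 without DMSO replicate 3 or inhibitor replicate 3 of the EGFR experiment or P53 inhibitor replicate 2, and none without day 2 replicate 1 or 2 or day 14 replicate 1 or 2. The higher count was 2 without day 2 replicate 2 or day 14 replicate 1, and the 9 libraries of the series alone gave no call.

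Hist1h1c was at 12.4, 8.52 and 8.30 RPKM on day 2, 18.3, 13.8 and 7.67 RPKM on day 7, and 37.3, 22.0 and 19.7 RPKM on day 14. Every day 14 library lay above every day 2 and day 7 library, and day 14 was 2.71-fold above day 2 (log2 change 1.32 ± 0.27 SE, adjusted p = 0.0018). Hist1h2bc was at 0.876, 0.875 and 1.11 RPKM on day 2, 2.09, 1.29 and 0.544 RPKM on day 7, and 3.76, 3.03 and 2.11 RPKM on day 14. Its day 14 mean was 3.10-fold above day 2, with no overlap (adjusted p = 0.00069). Hist2h2be was at 5.71, 3.91 and 6.53 RPKM on day 2, 10.7, 10.1 and 9.33 RPKM on day 7, and 12.4, 7.26 and 8.39 RPKM on day 14. It was already higher on day 7 (1.87-fold, adjusted p = 0.0070) and remained so on day 14 (1.74-fold, adjusted p = 0.010). Hist3h2a was at 4.10 ± 0.463 RPKM on day 2 and 7.23 ± 2.27 RPKM on day 14 (SD, n = 3; adjusted p = 0.024).

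Of the genes that fell, Hist1h2ak was at 29.7, 23.9 and 22.4 RPKM on day 2 and 12.6, 14.9 and 16.01 RPKM on day 14, 1.75-fold lower without overlap (adjusted p = 0.032). Hist1h3g was at 5.46, 7.41 and 3.06 RPKM on day 2 and 1.13, 1.44 and 1.25 RPKM on day 14 (4.17-fold lower, adjusted p = 0.043). The head-to-head pair of Hist2h2ac and Hist2h2be, whose starts lie 239 bases apart on chromosome 3, moved apart in value: Hist2h2ac had a log2 change of -0.93 (adjusted p = 0.14) where Hist2h2be had 0.69. That contrast within the pair was not tested.

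Day 7 against day 2 gave 1 higher gene, Hist2h2be, and 3 lower genes, Hist1h2ag, Hist1h2bj and Hist2h2ac (all tested genes: 4.12% higher, 9.59% lower). Hist1h2bj was at 10.3, 21.7 and 12 RPKM on day 2 and 6.74, 9.01 and 1.62 RPKM on day 7 (adjusted p = 0.031). The 3 lower calls were lost without day 7 replicate 3 or without day 2 replicate 2, and there were 6 without day 7 replicate 2. The call of Hist2h2ac alone was lost in 16 of 25 fits without 1 library (adjusted p 0.051 to 0.25) and in 7 of 10 other settings. The higher count was 0 without day 2 replicate 2, 3 without EGFR DMSO replicate 1, and 2 without EGFR DMSO replicate 3 or day 14 replicate 3. Day 14 against day 7 gave no limma call among 46 genes (of all tested genes, 0.0505% were higher and 0.0866% lower), with 4 at an unadjusted p under 0.05 and none with voom; the day 14 mean of Hist1h1c was 1.99-fold above day 7 (adjusted p = 0.19), and 1 gene was called without day 7 replicate 1.

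**Figure D4:**
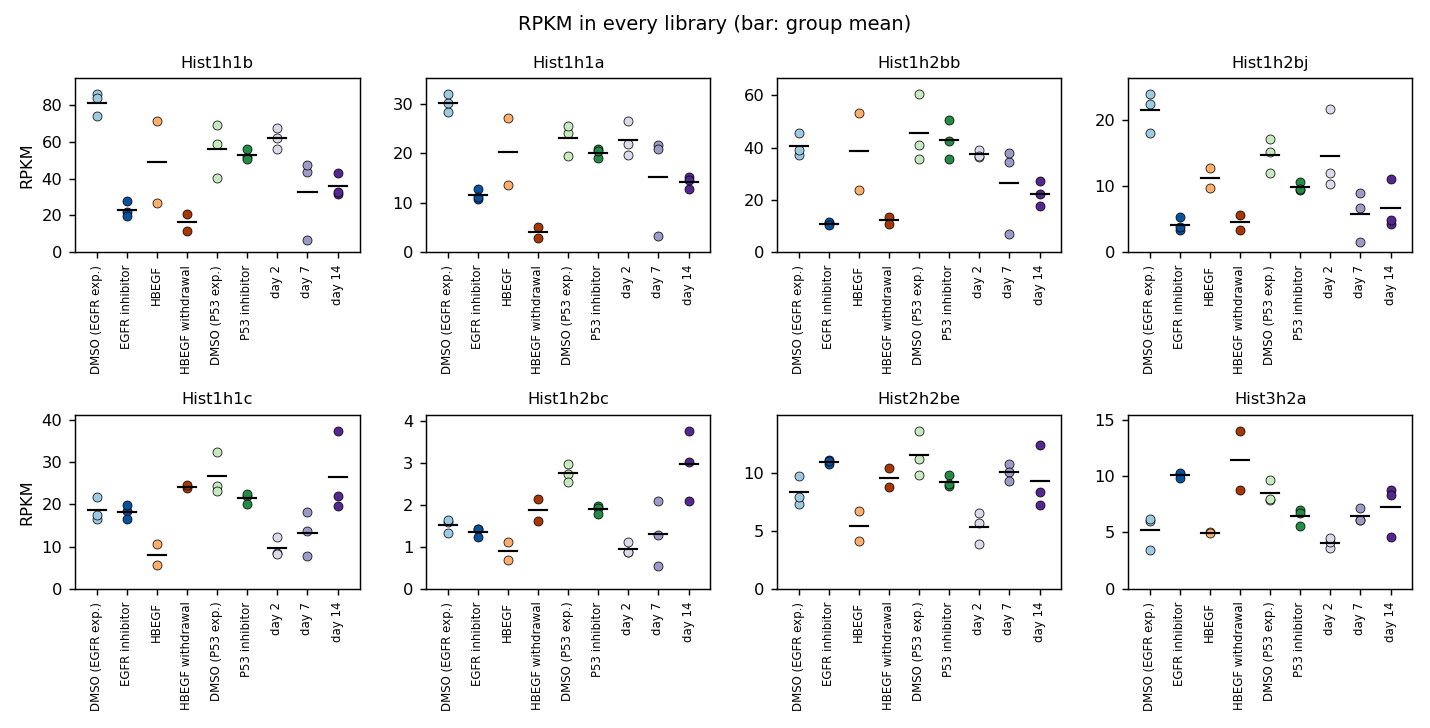
Deposited RPKM (vertical axis from 0, own scale for each gene) of 8 histone genes in each of the 25 libraries by group (horizontal axis), with a bar at the group mean. For the upper 4 genes every EGFR inhibitor library lies below every DMSO control of that experiment, and the lower 4 genes have higher means on day 14 than on day 2.

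The P53 inhibitor gave no limma call among the 46 tested histone genes (of all tested genes, 0.0289% were higher and 0.152% lower), with 3 at an unadjusted p under 0.05 and none with voom. The log2 change was below 0 for 43 of 46 histone genes and for 7285 of all 13850 tested genes, with a median of -0.30 against -0.01 for all tested genes. Hist1h4d was at 112, 56.4 and 78.9 RPKM with DMSO and 51.7, 47.5 and 56.3 RPKM with inhibitor (adjusted p = 0.58). Hist3h2ba was at 7.55, 11.8 and 10.7 RPKM with DMSO and 4.38, 3.40 and 3.75 RPKM with inhibitor, without overlap but with an adjusted p of 0.31. DMSO replicate 1 had the highest histone sum of the 25 libraries, 773 RPM.

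The genes that make, process and package histones were followed as lists. Of the S-phase genes, 37 of 41 were tested, and 35 of these fell with the EGFR inhibitor, 35 after HBEGF withdrawal, 27 on day 7 and 33 on day 14 against day 2; none rose. Of all tested genes, 22.2%, 22.5%, 9.59% and 17.6% fell in these comparisons. The median log2 changes of the S-phase genes were -0.99, -1.12, -0.61 and -0.76. Pcna, the replication clamp, fell from 19.2 ± 2.06 to 5.86 ± 0.523 RPKM with the EGFR inhibitor (SD, n = 3; adjusted p = 9.9e-06). Mki67, a proliferation gene that is also on this list, fell 6.11-fold with the inhibitor, from 53.3 ± 5.16 to 8.72 ± 0.615 RPKM (adjusted p = 0.0018).

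Of 20 tested genes of histone mRNA transcription and processing, 15 fell and 1 rose with the EGFR inhibitor, 13 fell after HBEGF withdrawal, 10 on day 7 and 15 on day 14 against day 2. The shares of all tested genes that fell were 22.2%, 22.5%, 9.59% and 17.6%, and 16.3% rose with the EGFR inhibitor. Slbp, the stem-loop binding protein, was at 2.33 ± 0.302 RPKM with DMSO and 1.37 ± 0.0902 RPKM with EGFR inhibitor (adjusted p = 0.0065), and it also fell after withdrawal (adjusted p = 0.0049) and on day 14 (adjusted p = 0.0014). Npat, the activator of histone gene transcription, fell after withdrawal (log2 change -0.30, adjusted p = 0.015) and on day 14 (-0.24, adjusted p = 0.025), and was not called with the EGFR inhibitor (-0.12, adjusted p = 0.22). Cpsf2, a subunit of the complex that cuts histone transcripts, and Eri1, a nuclease of histone mRNA decay, fell with the EGFR inhibitor (log2 changes -0.84 and -0.98) and after withdrawal (-1.15 and -1.16).

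Of 22 tested histone chaperones and assembly factors, 18 fell with the EGFR inhibitor, 19 after withdrawal, 11 on day 7 and 17 on day 14 against day 2, and none rose. The shares of all tested genes were 22.2%, 22.5%, 9.59% and 17.6% that fell, and 16.3%, 10.0%, 4.12% and 5.55% that rose. Nasp, which holds H3 and H4 before assembly, went from 17.5 ± 0.265 to 7.61 ± 0.440 RPKM with the EGFR inhibitor (log2 change -1.10). Of 9 tested genes of other histone variants and linker histones, 3 fell and none rose with the EGFR inhibitor (all tested genes: 22.2% fell, 16.3% rose). After withdrawal 1 fell and 1 rose (22.5% and 10.0%). These counts are too small to set apart from those shares. H2afx, the variant phosphorylated at DNA breaks, fell from 83.3 ± 1.85 to 31.6 ± 0.217 RPKM and H2afz from 12.2 ± 0.850 to 4.34 ± 0.367 RPKM with the EGFR inhibitor. H3f3b, which encodes the replacement histone H3.3, was at 18.2 ± 0.239 and 16.4 ± 0.523 RPKM (adjusted p = 0.30). H1f0, the linker histone of resting cells, rose after HBEGF withdrawal from 50.4 ± 20.6 to 79.8 ± 0.540 RPKM (SD, n = 2, adjusted p = 0.024). Its HBEGF values were 35.8 RPKM in the library with low Mki67 and 64.9 RPKM in the other. It did not rise with the EGFR inhibitor, at 80.5, 92.8 and 96.5 RPKM with DMSO and 83.8, 81.7 and 76.8 RPKM with inhibitor. On day 14 it was not called (log2 change -0.01, adjusted p = 0.999).

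Histone sums were set beside those of the S-phase genes. The summed RPKM of the 41 S-phase genes was 283, 289 and 283 with DMSO and 82.5, 79.6 and 77.7 with EGFR inhibitor, a 3.56-fold difference. These sums include Mki67, which supplied 53.3 of the mean of 284.9 with DMSO and 8.72 of 79.9 with inhibitor. In the HBEGF experiment it supplied 35.8 of 262.9 with HBEGF and 5.35 of 65.2 after withdrawal. Folds of the S-phase sum without Mki67 were not computed. The histone sum was 1.78-fold lower in RPM and 2.12-fold lower as summed RPKM, the measure used for the S-phase genes. The S-phase sum was 202 and 324 with HBEGF and 67.7 and 62.8 after withdrawal, a 4.03-fold difference. The histone sums there were 373 and 368 RPM on average, or 421 and 329 as summed RPKM. The HBEGF mean joins 309 RPM in the library with low Mki67 and 438 RPM in the other. With the P53 inhibitor the S-phase sum was 1.23-fold higher on average (207 against 169), while the histone sum was 1.33-fold lower in RPM and 1.34-fold lower as summed RPKM. The histone sums of these groups overlap, at 480 to 773 RPM with DMSO and 453 to 482 RPM with inhibitor, with DMSO replicate 1 at 773. The S-phase sums do not, at 162.1 to 174.5 and 206 to 208.5, but none of the 37 tested S-phase genes was called. The long-annotated genes held different shares of the histone reads: 57.9 to 58.7% with DMSO and 69.4 to 73.3% with EGFR inhibitor, 52.4 and 59.7% with HBEGF and 73.4 and 77.7% after withdrawal, 52.6 to 59.0% on day 2 and 62.2 to 71.8% on day 14. Day 7 replicate 3 was at 78.7% and the other day 7 libraries at 61.4 and 61.5%. Reads on genes of 1000 bases or less went from a mean of 251 to 97.9 RPM with the EGFR inhibitor and from 166 to 90.3 after withdrawal, and those on long-annotated genes went from 349 to 239 and from 207 to 278. These sums are descriptions and were given no test.

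**Figure D5:**
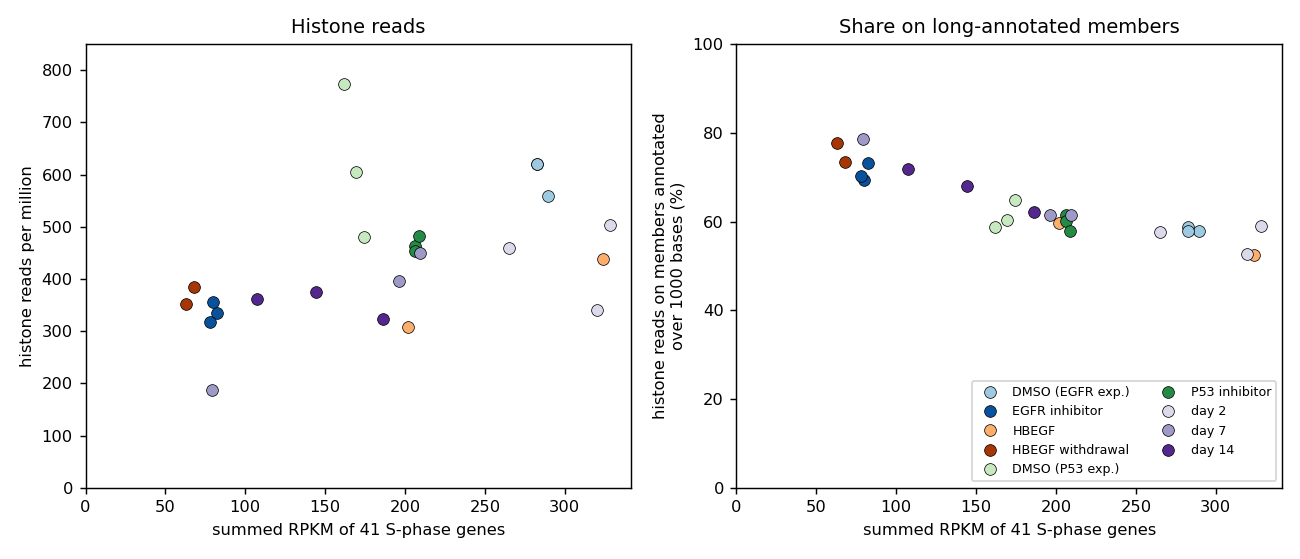
Each point is 1 of the 25 libraries, colored by group; the horizontal axes give the summed RPKM of 41 S-phase genes, and the vertical axes the histone RPM (left) and the percent of histone reads on long-annotated genes (right). Libraries with an S-phase sum under 100 have 69.4 to 78.7% of histone reads on long-annotated genes.

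Markers of other cells and a measure of RNA composition moved with the same groups. The summed RPKM of 9 microglia markers was 0.481 to 0.9995 with DMSO and 2.52 to 5.61 with EGFR inhibitor, and 0.0421 and 0.234 with HBEGF and 12.9 and 27.3 after withdrawal. Lyz2 reached 23.5 RPKM, Tmem119 was at 0 in all 25 libraries and Cx3cr1 reached at most 0.0055 RPKM; of the 9, 2 were tested, and both rose in both comparisons. On day 2 the microglia markers summed to 0.736 to 2.27 and on day 14 to 0.170 to 0.221, where 1 of the 2 tested fell, the opposite direction to that after withdrawal. The 7 neuron markers summed to 3.07 to 3.26 with DMSO and 6.86 to 8.20 with EGFR inhibitor, where 3 of 3 tested rose, and to 4.14 to 6.37 with HBEGF and 6.05 to 6.42 after withdrawal, where none of the 3 passed with limma and 2 had an unadjusted p under 0.05. On day 14 against day 2, 1 of the 3 tested neuron markers rose. Of all tested genes, 16.3% rose with the EGFR inhibitor, 10.0% after withdrawal and 5.55% on day 14. Map2, Tubb3 and Dcx reached 4.495, 3.52 and 1.94 RPKM. The other neuron markers stayed low in every library, with Snap25 at most at 0.517 RPKM, Stmn2 at 0.220, Rbfox3 at 0.0602 and Syt1 at 0.0092.

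The 6 oligodendrocyte precursor markers summed to 322 to 418 with DMSO and 114 to 137 with EGFR inhibitor, where 3 fell and 1 rose. They summed to 391 to 418 with HBEGF and 92.5 to 98.7 after withdrawal, where 3 fell. On day 2 they summed to 320 to 403 and on day 14 to 342 to 420, where 1 fell. Of all tested genes, 22.2%, 22.5% and 17.6% fell and 16.3%, 10.0% and 5.55% rose in these 3 comparisons. Olig1 and Olig2 led the sums, reaching 345 and 153 RPKM. Pdgfra reached at most 2.86 RPKM, Cspg4 1.43, Sox10 6.63 and Gpr17 8.59. The 6 oligodendrocyte markers summed to 3.54 to 5.36 with DMSO and 6.71 to 7.19 with EGFR inhibitor, and to 8.64 to 17.5 with HBEGF and 25.02 to 25.8 after withdrawal. The 6 pericyte and fibroblast markers summed to 0.158 to 0.289 and 1.23 to 1.499 in the EGFR experiment and to 0.226 to 0.283 and 1.73 to 2.11 in the HBEGF experiment, with Kcnj8 at 0 in every library. The 10 astrocyte markers, none at 0 in any library, summed to 134 to 168 with DMSO and 407 to 429 with EGFR inhibitor, where 7 rose and 1 fell. With HBEGF they summed to 144 to 151 and after withdrawal to 304 to 339, where 5 rose and 2 fell. On day 2 they summed to 90.9 to 123 and on day 14 to 159 to 259, where 7 rose and none fell. The shares of all tested genes are those given above. Mitochondrial ribosomal RNA took 18.4 to 18.8% and 22.2 to 25.4% of reads with DMSO and EGFR inhibitor, 17.2 to 18.2% and 27.9 to 29.8% with HBEGF and after withdrawal, and 12.3 to 16.1% and 20.2 to 23.9% on day 2 and day 14. The part of these in the histone results was not tested.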

How the data were processed

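Per the submitters' processing notes, the authors used GRCm38, STAR, HTSeq, edgeR and limma. The sources used here give no version or role of these tools, no annotation release and no strand setting. Total RNA was converted to cDNA with the Ovation RNA-seq V2 kit and made into libraries with NEBNext Ultra, per the labels' protocols. The authors deposited RPKM for 54429 entries in 25 libraries. RPKM times gene span (GENCODE M21) summed to 1000630 to 1003980 per library, which makes gene span the length behind the values, and 99.2 to 99.4% of low values came out as whole reads (up to 20 reads, within 0.1).

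Genes with at least 1 RPKM in at least 2 libraries were fitted with limma 3.58.1 in R 4.3.3 on log2(RPKM + 1), with 1 mean per group, 16 residual degrees of freedom and robust trended moderation. The script was tested on simulated data. Alternatives were another pseudocount (0.1), log2(CPM + 1), no filter or 5 RPKM, 2 scalings, voom, each experiment alone, a replicate block and leaving out each library. Sequence windows, stem-loops and promoters came from GENCODE M21 and RefSeq. Named genes were those called with the largest changes (up to 8 per direction with at least 5 RPKM), the 2 highest of each class, all Hist1h1, Hist3h and Hist4h genes, and genes known for polyadenylated or testis transcripts. The members and all lists were chosen with earlier results of these data known.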

Additional observations from a re-analysis of the deposited data

How the results depend on the processing

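Counts of histone genes past the threshold moved as follows. With the EGFR inhibitor, 1 higher gene became 2 with a 5 RPKM filter, voom or only that experiment's libraries, and 3 with quantile normalization (1 to 2 without any 1 library); the 20 lower genes ranged from 15 to 22 over the other settings and from 14 to 22 without any 1 library. After HBEGF withdrawal, 4 higher genes became 0 with only that experiment's libraries (2 to 4 without 1 library), and 3 lower genes became 1 with no filter or median-of-ratios scaling, 0 with only that experiment's libraries and 8 without both libraries that stand apart (0 to 8 without 1 library). On day 7 against day 2, 1 higher gene became 0 with the day series alone (0 to 3 without 1 library), and 3 lower genes became 1 with a pseudocount of 0.1 or median-of-ratios scaling and 0 with no filter, quantile normalization, the day series alone or without both libraries (0 to 6 without 1 library). On day 14 against day 7, 0 higher genes became 1, Hist1h2bc, with log2(CPM + 1) (0 to 1 without 1 library). On day 14 against day 2, 4 higher genes became 0 with the day series alone (2 to 4 without 1 library), and 2 lower genes became 1 with a pseudocount of 0.1, 4 with log2(CPM + 1) or a 5 RPKM filter, 0 with no filter, both scalings or the day series alone, and 9 without both libraries (0 to 9 without 1 library). The EGFR inhibitor change minus that of withdrawal gave 1 lower gene, Hist1h1c, with log2(CPM + 1) or voom (0 to 1 without 1 library) and 1 higher gene, Hist1h1a, without both libraries. Leaving out both libraries was chosen after seeing the data, and the cause of these moves was not tested, beyond the smaller number of libraries or the different set of genes in some of them.

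Replicate numbers were not used to pair the samples in the main fit, since the sources used here do not say whether same-numbered libraries belong together. Correlations of same-numbered libraries' deviations from their group means ran from -0.095 to 0.118, and those of differently numbered libraries from -0.146 to 0.075. With groups of 2 or 3 libraries these values cannot exclude pairing. With a replicate block the EGFR inhibitor gave 2 higher genes, HBEGF withdrawal 1 lower gene, and day 7 against day 2 gave 0 lower genes.

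The ratio of summed histone share on day 14 to day 7 was 1.03 by reads and 0.967 by summed RPKM, which weights short genes more. Over 32 gene results, 52 of the calls under other settings and 92 of those without 1 library were weaker, 11 and 11 stronger, and none reversed. Over 2354 genes of at least 5 RPKM the median log2 change was -0.33 with the EGFR inhibitor, -0.45 after withdrawal and -0.20 on day 14 against day 2, against -0.14, -0.20 and -0.00 with quantile normalization, and -0.32, -0.33 and -0.06 with median-of-ratios scaling; Hist1h1c, Hist1h2bc, Hist2h2be and Hist3h2a remained higher after withdrawal and on day 14 under both scalings. Genes near the filter rest on few reads, and 23 of the 69 were not tested. Of these, the long-annotated Hist1h2be had the most reads, 2355 over all libraries, and its span of 37455 bases put its deposited values below the filter. By exon length it was at 5.08, 4.59 and 4.95 RPKM with DMSO and 1.97, 2.17 and 2.69 with EGFR inhibitor. It was at 2.17 and 4.12 with HBEGF and 1.93 and 1.88 after withdrawal. On day 2 it was at 4.15, 4.06 and 3.79, and on day 14 at 2.22, 2.71 and 2.60.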
